A study of Mus musculus with 81 samples.

Results

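The genes described here encode the SNARE proteins and the vesicle release machinery that surrounds them, measured in 3 types of hippocampal excitatory neuron of trisomic and disomic mice. The 52 members were listed by gene symbol, and the rule uses no measured value. Of these, 51 were found among the 57010 gene IDs of the count tables, each with 1 ID, and Vamp7 was not analysed here. Of the 51 genes, Cplx3 was close to 0 in all 81 libraries (0 to 1.63 CPM in CA1) and passed no filter on low counts. The other 50 were tested in at least 1 comparison. None of the members lies in the chromosome 16 or chromosome 17 segments that Ts65Dn mice carry in 3 copies.

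Neurotransmitter release depends on SNARE proteins of the vesicle (VAMPs) zippering together with SNARE proteins of the plasma membrane (syntaxin and SNAP-25), which pulls the 2 membranes into fusion. Synaptotagmins such as Syt1 sense the calcium that enters with an action potential and complexins clamp or assist the partly assembled complex, so that fusion is timed to the stimulus. Munc13 and RIM proteins prepare vesicles at the active zone, Rab3 and its partner rabphilin mark the vesicles, tomosyns compete for the target SNAREs, and NSF with its SNAP adaptors takes spent complexes apart. In the hippocampus DGCs contact CA3 PNs through large mossy fibre boutons, CA3 PNs contact CA1 PNs, and the transcripts measured in a cell body serve the terminals of that cell.

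CA1 pyramidal neurons (CA1 PNs), CA3 pyramidal neurons (CA3 PNs) and dentate gyrus granule cells (DGCs) were cut by laser capture from Nissl-stained sections of mice of about 6 months of age (MO), and total RNA of each population of each mouse was sequenced as 1 library. The mice were Ts65Dn (Ts), a Down syndrome model with an extra chromosome that carries part of mouse chromosomes 16 and 17, or their disomic littermates (2N), bred from Ts65Dn dams and C57Bl/6J Eicher × C3H/HeSnJ F1 sires. Dams received chow with choline chloride at 1.1 g/kg (choline normal, ChN) or 5.0 g/kg (choline supplemented, ChP) until weaning, and every offspring received the ChN diet thereafter. The 28 mice gave 6 2N ChN, 5 to 6 Ts ChN, 7 2N ChP and 7 to 9 Ts ChP libraries per population. The study's methods describe the ChN mice as male, and the sex of the ChP mice was not given in the sources used here. Library totals were 625250 to 4744044 counts on ChN and 358355 to 2559182 on ChP, and 46 to 51 members were detected per library. Each library pools captured cell bodies of 1 mouse, and in such bulk samples fewer cells of a type and less RNA per cell cannot be told apart.

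Several libraries stood apart from their labels or their group. The mean over the triplicated genes was 5.14 to 5.51 (log2 CPM) in 2N and 5.70 to 6.02 in Ts libraries, except that the CA1 library of mouse 17-154, labelled 2N, lay at the Ts level, and the CA3 library of mouse 15-145, labelled Ts, lay at the 2N level. The latter was grouped as 2N like the other 2 libraries of that mouse, and the genotype results in CA3 PNs are given with its own label where they change. The CA1 library labelled 2N of mouse 17-154 was kept as 2N in every CA1 fit except those that left it out, and no fit gave it another label. In 10 of the 27 CA1 libraries a list of CA2 markers (7 genes, among them Necab2 and Map3k15, picked with these libraries already seen) averaged 5.74 to 7.90 on the log2 CPM scale, against 1.64 to 3.22 in the other 17. These 10 were 2 2N ChN, 1 Ts ChN, 3 2N ChP and 4 Ts ChP libraries. That of mouse 17-154 was among them, so fits without the 10 also leave it out. CA3 PN and DGC libraries carried their own markers: summed CA3 markers were 1688 to 2239 CPM in CA3 PNs and summed DG markers 2124 to 2879 CPM in DGCs, while summed CA1 markers ranged from 54.3 to 1979 CPM over the CA1 libraries.

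Promoter sequence was available for 41 of the members in RefSeq (GRCm38.p6), as 56 windows. The 10 others were Vamp2, Vamp3, Rims2, Doc2a, Doc2b, Snap25, Syt4, Syt5, Syt7 and Syt17. The 250 bases upstream of the start are printed for 5 members: Cplx1 and Rph3a, which carried the genotype differences described later, and Stx1a, Sv2b and Syn2, which were among those that differed most between populations. Capitals mark the E-box CAGCTG and the GC box GGGCGG, the latter read on either strand.
Cplx1, chr5:108550028-108550277, minus strand: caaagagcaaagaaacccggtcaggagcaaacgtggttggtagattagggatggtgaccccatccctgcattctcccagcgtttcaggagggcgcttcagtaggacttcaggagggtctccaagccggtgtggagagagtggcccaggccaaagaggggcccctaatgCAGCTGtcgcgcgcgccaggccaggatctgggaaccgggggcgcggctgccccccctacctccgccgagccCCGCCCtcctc
Rph3a, chr5:121010093-121010342, minus strand, most upstream of 3 windows: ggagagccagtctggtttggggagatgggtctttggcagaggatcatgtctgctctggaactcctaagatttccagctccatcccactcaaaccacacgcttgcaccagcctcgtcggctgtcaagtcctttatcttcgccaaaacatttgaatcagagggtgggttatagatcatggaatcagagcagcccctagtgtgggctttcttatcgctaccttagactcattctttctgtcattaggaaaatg
Stx1a, chr5:135023232-135023481, plus strand: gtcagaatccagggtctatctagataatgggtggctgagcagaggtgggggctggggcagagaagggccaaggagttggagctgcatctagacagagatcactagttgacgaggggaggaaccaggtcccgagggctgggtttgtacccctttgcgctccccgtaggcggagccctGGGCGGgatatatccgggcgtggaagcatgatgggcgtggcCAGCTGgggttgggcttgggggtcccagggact
Sv2b, chr7:75309263-75309512, minus strand, most upstream of 4 windows: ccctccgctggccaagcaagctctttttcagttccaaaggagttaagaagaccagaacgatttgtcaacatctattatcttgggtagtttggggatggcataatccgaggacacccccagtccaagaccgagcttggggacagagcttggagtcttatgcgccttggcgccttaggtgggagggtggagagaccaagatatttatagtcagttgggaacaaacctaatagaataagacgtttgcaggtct
Syn2, chr6:115134652-115134901, plus strand, most upstream of 2 windows: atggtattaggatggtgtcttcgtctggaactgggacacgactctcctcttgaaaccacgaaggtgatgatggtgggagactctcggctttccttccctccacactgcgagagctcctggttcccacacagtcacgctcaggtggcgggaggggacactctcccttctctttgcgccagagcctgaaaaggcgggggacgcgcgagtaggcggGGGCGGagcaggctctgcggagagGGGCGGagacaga

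Across the 56 upstream windows of the members, both strands searched, GGGCGG was found in 57.1%, against 32.7% of all 32851 windows, and CAGCTG in 30.4% against 13%. The NRF1 letters CGCATGCG stood in 7.14% of member windows (Bsn, Stx12, Stxbp5 and Syn1) against 1.55%. The TATA letters TATAAA stood in 8.93% against 12.4%, the full CRE TGACGTCA in 1.79% against 1.55%, and its shorter form TGACG, which every full CRE contains, in 17.9% against 17.8%. The left RE1 letters TTCAGCACC were found in 1 window, that of Syn1 (1.79% against 0.301%), and the right RE1 letters GGACAGCGC in 0 of the member windows (0.304% of all). Of the sequences printed, Stx1a and Cplx1 held 1 E-box and 1 GC box each, Syn2 held 2 GC boxes, and Rph3a and Sv2b held neither. These counts describe letters within the windows and nothing about which factors bind there.

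In 2N ChN mice the per-length level (TPM) was led by the same few genes in each population. Snap25, the plasma membrane SNARE, was the highest member in each population, with a CA1 median of 555 TPM (320.5 to 1813 over 6 libraries), a CA3 median of 2691 TPM (1251 to 3124) and a DGC median of 605 TPM (526 to 794). Synaptophysin (Syp), an abundant vesicle membrane protein, followed at 505 and 1147 TPM in CA1 and CA3 PNs, whereas in DGCs the disassembly ATPase Nsf (431 TPM) stood above Syp (411 TPM). The remaining members of the 10 highest were Syt1 (390.1 TPM), Rab3a, Nsf, Vamp2, Cplx1 (200.4 TPM), Syt11, Syn1 and Snap47 in CA1 PNs. In CA3 PNs they were Syt1 (735 TPM), Nsf, Rab3a, Cplx2 (401 TPM), Vamp2, Syn1, Syt11 and Syn2, and in DGCs Cplx2 (345 TPM), Vamp2, Rab3a, Syt1 (222 TPM), Napa, Syt7 (205 TPM) and Syn1. Median levels exceeded 100 TPM for 11 members of 51 in CA1, 20 in CA3 and 12 in DGCs.

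At the other end, the 5 lowest members were Syt2, Doc2a, Rims3, Syt6 and Cplx3 for CA1 PNs (4.08, 2.01, 1.71, 0.075 and 0 TPM), Rims3, Syt17, Syt6, Cplx3 and Doc2b in CA3 PNs (1.19, 0.235, 0.095, 0 and 0 TPM), and Syt6, Rims3, Syt2, Sv2b and Cplx3 in DGCs (1.03, 0.91, 0.445, 0.4 and 0 TPM). Cplx3, the complexin of retinal ribbon synapses, and Syt6 were thus near the limit of detection in all 3 populations. Doc2b, a soluble calcium sensor of spontaneous release, and Sv2b, an isoform of the vesicle glycoprotein SV2, were each close to absent from 1 population and abundant in the other two. Of the 50 members other than Cplx3, 34 peaked in CA3 PNs, 10 peaked in DGCs and 6 peaked in CA1 PNs.

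**Figure D1:**
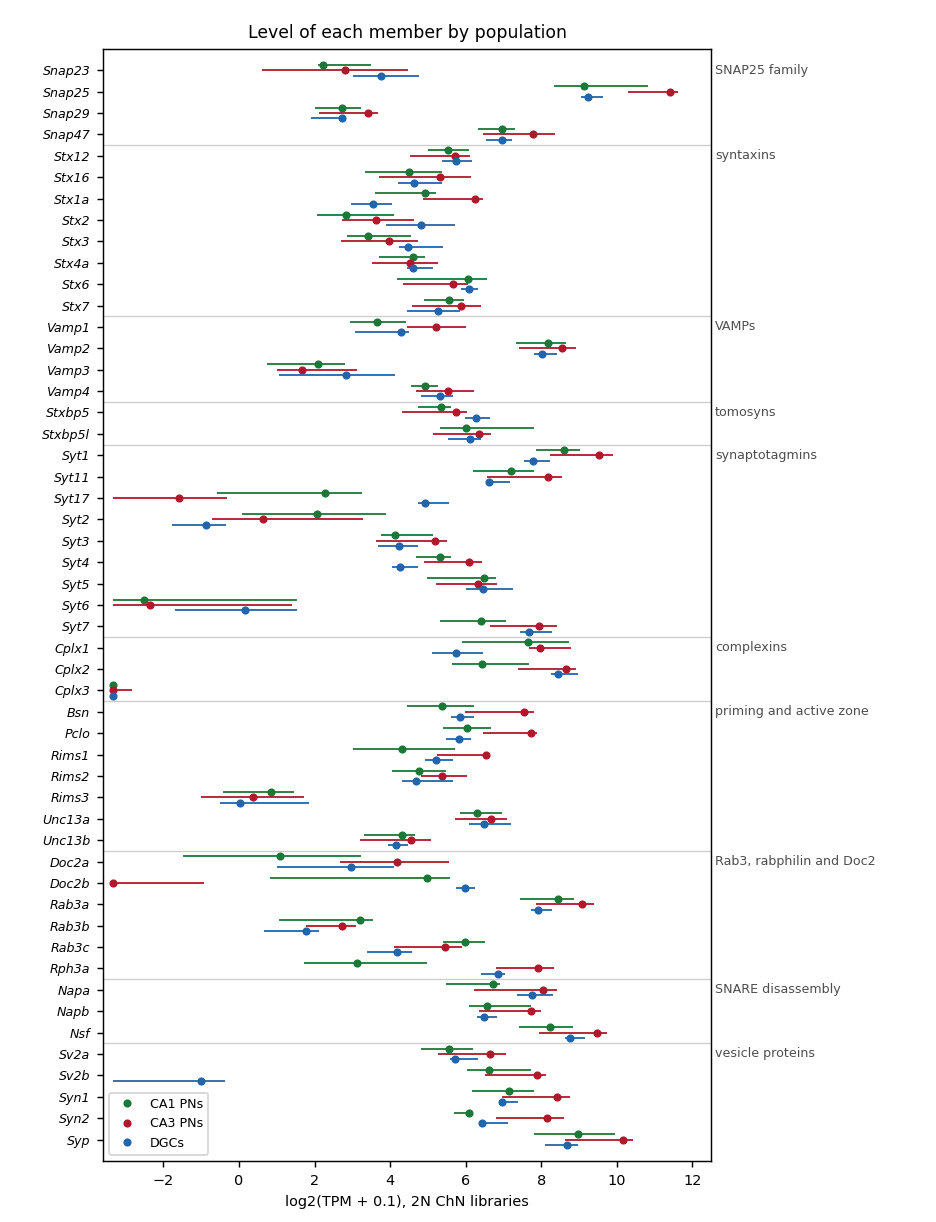
Level of each member in 2N ChN mice as log2(TPM + 0.1), grouped by role, with a point at the median and a line over the range of 6 libraries in each population. Snap25 lies farthest to the right in all 3 populations (median 555 TPM in CA1, 2691 in CA3 and 605 in DGCs), and Doc2b in CA3 PNs and Sv2b in DGCs fall far below their level elsewhere.

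Transcripts of paralogs were divided differently between the populations. The CA1 shares given here and below include 2 libraries rich in CA2 markers, and no share was computed without them. Doc2b made up 91.9% of the Doc2a and Doc2b transcripts (median of TPM shares over 6 2N ChN libraries) in CA1 PNs and 90.2% in DGCs, but 0% in CA3 PNs, where the highest library reached 0.912%. Sv2b made up 71.2% of the SV2 pair in CA1 PNs and 69.6% in CA3 PNs, and 0.605% in DGCs (0 to 1.34%), whose SV2 was nearly all Sv2a. Cplx1 was 58.3% of complexin in CA1 PNs and 45.5% in CA3 PNs but 12.2% in DGCs (9.47 to 15.9%), where Cplx2 dominated. The DGC ranges of Sv2b and Cplx1 lay wholly below those of both pyramidal populations.

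Rims1, a scaffold that ties vesicles to calcium channels, held 32.8% of the Rims1 to Rims3 sum for CA1 PNs, 65.6% for CA3 PNs and 55.7% for DGCs. The CA1 range (30.5 to 64.0%) overlapped both others. Over the CA1 libraries of all groups, Rims1 was 198 to 543 CPM in those rich in CA2 markers and 95.8 to 143 CPM in the others. Rab3c was 17.3% of the Rab3 sum in CA1 PNs (11.3 to 19.5%) against 6.58% (5.74 to 10.2%) and 5.92% (4.67 to 9.25%) in CA3 PNs and DGCs, without overlap. Napb, the brain form of the NSF adaptor, made up 52.7% of the Napa and Napb sum for CA1 PNs, 46.2% for CA3 PNs and 29.7% for DGCs (24.2 to 33.3%), the last without overlap with the others. Of the remaining families, Vamp2 was 95.7, 89.8 and 94.0% of Vamp1 plus Vamp2, Unc13a was 82.6, 79.1 and 82.4% of the Munc13 pair, Snap25 was 81.1, 91.7 and 80.7% of its family, and Syn2 was 33.1, 47.3 and 41.0% of Syn1 plus Syn2 in CA1 PNs, CA3 PNs and DGCs.

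Counts were then compared between populations in the 18 2N ChN libraries, in 1 edgeR quasi-likelihood fit over 14973 genes, to ask where release genes are normally set high or low. The log2 fold change (LFC) is the first population minus the second, and a gene was called at an adjusted p under 0.05 over all genes. The 3 pairs share libraries, so they are not independent of each other. CA3 PNs stood out: against DGCs, 31 of 50 members were higher and 6 lower (37 of 50 called, where 43.7% of all genes were called, 21.9% higher and 21.8% lower), with a median LFC of 0.84 over the members. Against CA3 PNs, CA1 PNs had 3 members higher and 24 lower (27 of 50, all genes 23.3%, 11.3% higher and 12% lower), with a median LFC of -0.45. Against DGCs, CA1 PNs had 23 members higher and 9 lower (32 of 50, all genes 34.3%, 17.7% higher and 16.7% lower), with a median of 0.27. The median over all genes tested was -0.00040, -0.032 and -0.044 in the pairs CA1 against CA3, CA1 against DGCs and CA3 against DGCs. Other cells also differed between these libraries. Summed inhibitory neuron markers were 633 to 910 CPM in CA1 PNs, 677 to 941 CPM in CA3 PNs and 325 to 412 CPM in DGCs. Summed astrocyte markers were 440 to 660, 1920 to 2891 and 719 to 1021 CPM in the same order. The part of such cells in the population differences, that of Syt2 included, was not tested.

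**Figure D2:**
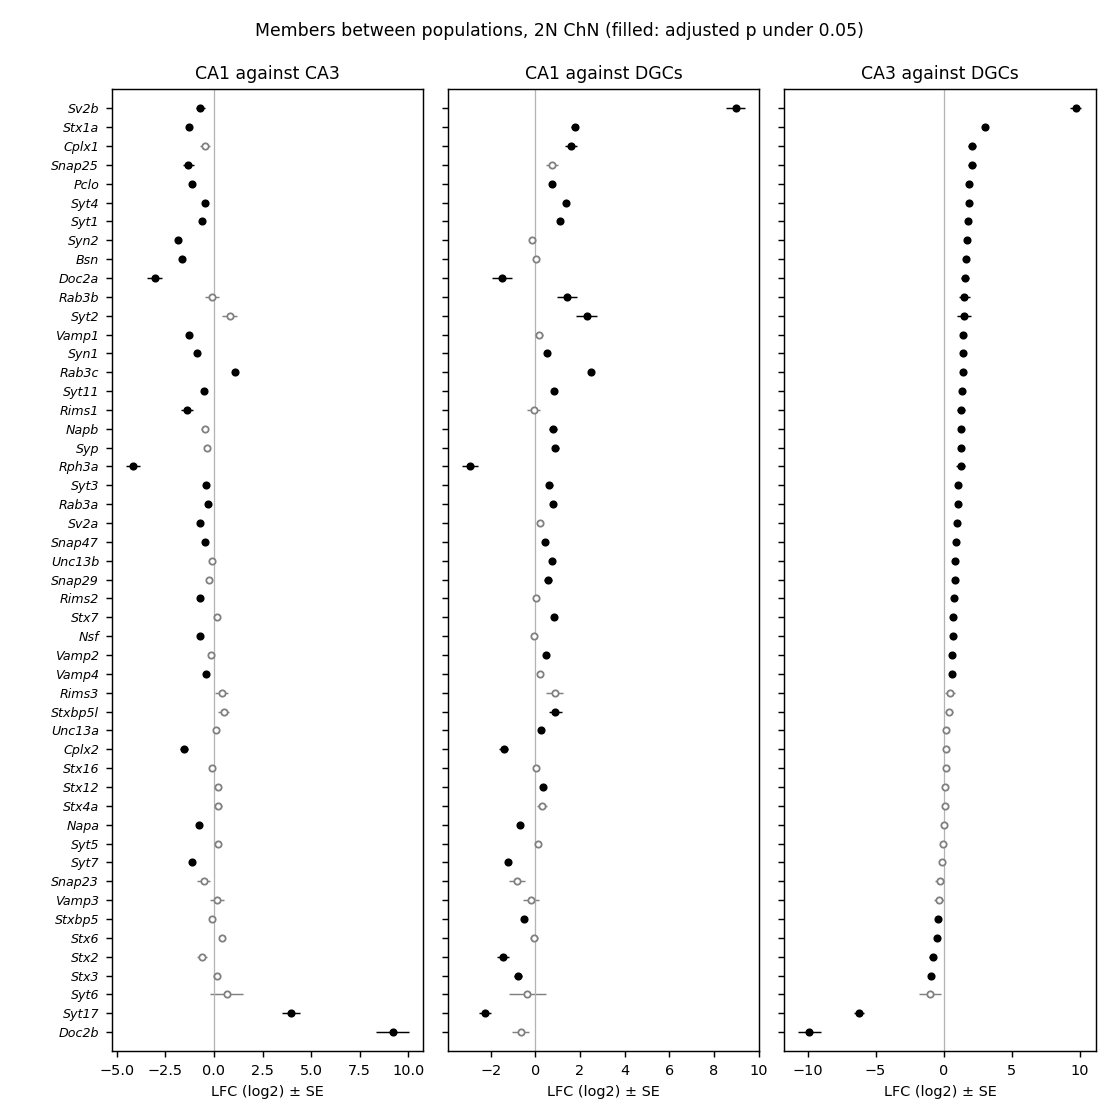
LFC ± SE of each member in the 3 pairs of populations in 2N ChN mice, ordered by the CA3 against DGC value, with filled points for an adjusted p under 0.05. Most points lie right of 0 in the CA3 against DGC panel (31 of 50 higher, 6 lower) and left of 0 in the CA1 against CA3 panel (24 lower, 3 higher).

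Taken by pattern, 21 members were higher in CA3 PNs than in both other populations. They comprised plasma membrane and vesicle SNAREs (Snap25, Snap47, Stx1a, Vamp1 and Vamp4), synaptotagmins (Syt1, Syt3, Syt4 and Syt11), active zone scaffolds (Rims1, Rims2, Bsn and Pclo), Rab3a with its partner Rph3a, Doc2a, Nsf, and the vesicle proteins Syn1, Syn2, Sv2a and Sv2b. A further 9 members were lower in DGCs than in both pyramidal populations (Snap29, Stx7, Vamp2, Syt2, Cplx1, Unc13b, Rab3b, Napb and Syp). DGCs were above both others for 4 members (Stx2, Stx3, Stxbp5 and Syt17). CA1 PNs were below both for 3 others (Cplx2, Napa and Syt7) and above both for 1 (Rab3c). CA3 PNs were below both for 1 other (Doc2b). The other 4 (Stx12, Stx6, Stxbp5l and Unc13a) fitted none of these patterns. Each member is named under 1 pattern here, although some fitted another pattern as well. Among those named under CA3 PNs, Stx1a and Sv2b were for example also lower in DGCs than in CA1 PNs, so members lowest in DGCs are not limited to the 9. Rph3a and Doc2a, named under CA3 PNs, were also lower in CA1 PNs than in DGCs. Syt17, named under DGCs, was also lower in CA3 PNs than in CA1 PNs. No pair passed for 7 members (Rims3, Snap23, Stx16, Stx4a, Syt5, Syt6 and Vamp3). Without the CA1 libraries rich in CA2 markers 32, 34 and 39 members were called in the pairs CA1 against CA3, CA1 against DGCs and CA3 against DGCs. In that setting Cplx1, Napb, Syp and Vamp2 were also called in the first pair, with CA3 PNs at the higher level. These members then fitted the CA3 pattern too, so the patterns named above are those with all CA1 libraries kept.

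Among the SNAREs, Snap25 reached 3973, 4036 and 5002 CPM (lowest, median and highest of 6 libraries, counts scaled to the TMM-adjusted library size) in CA3 PNs, 916, 985 and 1077 CPM in DGCs and 964, 1105 and 3515 CPM in CA1 PNs. CA3 PNs lay wholly above both, with an LFC of 2.05 ± 0.29 (SE) over DGCs (adjusted p = 2.22e-05) and CA1 PNs lower by an LFC of -1.31 ± 0.28 (adjusted p = 0.00245), or -2.0 ± 0.07 without the CA1 libraries rich in CA2 markers. Stx1a, the neuronal syntaxin that binds Munc18, was 105, 128 and 140.0 CPM in CA3 PNs, 37.5, 56.3 and 62.3 CPM in CA1 PNs and 11.5, 15.1 and 17.4 CPM in DGCs. No 2 populations overlapped, and the LFC was 3.01 ± 0.15 for CA3 PNs and 1.75 ± 0.16 for CA1 PNs over DGCs (adjusted p = 1.01e-18 and 3.02e-11). Of the 8 syntaxins, Stx2, Stx3 and Stx6 were instead higher in DGCs than in CA3 PNs. Stx3 was 40.9, 44.1 and 54.2 CPM in DGCs against 17.9, 23.8 and 34.4 CPM in CA3 PNs, without overlap (LFC -0.91 ± 0.17, adjusted p = 3.25e-05), and Stx2 and Stx6 differed by an LFC of -0.82 ± 0.23 and -0.48 ± 0.17 in that pair (adjusted p = 0.00416 and 0.021). The Stx6 call held in 3 of 6 fits that left out a mouse and was lost without 17-154, 17-172 or 17-56 (adjusted p up to 0.116), and the Stx2 call was lost without 17-172 (adjusted p = 0.0747). The tomosyn Stxbp5 was also highest in DGCs, at 299.9, 322 and 326 CPM against 197, 241 and 275 CPM in CA3 PNs (LFC -0.42 ± 0.09, adjusted p = 0.000234).

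Of the synaptotagmins, Syt1, the fast sensor of synchronous release, ran from CA3 PNs (2395 to 2718 CPM) through CA1 PNs (1383 to 2262 CPM) to DGCs (704 to 827 CPM) with no overlap (LFC 1.75 ± 0.10 for CA3 PNs over DGCs, adjusted p = 1.83e-17). Syt7, a slow sensor linked to facilitation and asynchronous release, did not follow it: it was 565 to 657 CPM in CA3 PNs and 610.5 to 698 CPM in DGCs, and 188 to 314 CPM in CA1 PNs, which were lower by an LFC of -1.15 ± 0.10 and -1.25 ± 0.10 (adjusted p = 5.11e-12 and 3.26e-13). CA3 PNs and DGCs overlapped in Syt7 (LFC -0.10 ± 0.09, adjusted p = 0.425). Syt17 was 45.7, 64.6 and 77.3 CPM in DGCs, 1.14, 13.5 and 22.7 CPM in CA1 PNs and 0, 0.645 and 1.21 CPM in CA3 PNs. As 9 counts in all stood behind the CA3 value, its ratio is given from summed counts: DGCs were 80.0 times CA3 PNs (95% counting interval 41.7 to 176) and CA1 PNs 17.0 times (8.50 to 38.5). In the 2N ChP mice the CA1 against CA3 difference of Syt17 was smaller (LFC 1.56, adjusted p = 0.0718), where 1 CA3 library stood at 18.6 CPM.

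Complexins and rabphilin were set apart in different populations. Cplx1 was 287, 353 and 467 CPM in CA3 PNs, 156, 189 and 471 CPM in CA1 PNs and 71.7, 78.7 and 99.4 CPM in DGCs, which lay below both (LFC 2.07 ± 0.27 for CA3 PNs and 1.60 ± 0.27 for CA1 PNs over DGCs, adjusted p = 9.29e-06 and 0.000197). Without the CA1 libraries rich in CA2 markers the CA1 value fell to an LFC of 1.06 (adjusted p = 7.58e-11). Cplx2 overlapped between CA3 PNs (1580.2 to 2018 CPM) and DGCs (1512 to 1777 CPM) and was lower in CA1 PNs (427 to 1106 CPM, LFC -1.55 ± 0.20 and -1.42 ± 0.20, adjusted p = 2.15e-05 and 3.26e-05). Rph3a, the Rab3 effector rabphilin, was 808, 916 and 1077 CPM in CA3 PNs, 344, 398 and 427 CPM in DGCs and 21.2, 29.0 and 141 CPM in CA1 PNs, with no overlap between any 2 populations. CA1 PNs were lower by an LFC of -4.16 ± 0.37 than CA3 PNs and -2.92 ± 0.36 than DGCs (adjusted p = 2.89e-07 and 7.77e-06), and by -5.17 and -3.91 without the CA1 libraries rich in CA2 markers.

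The 2 Doc2 genes were set in opposite ways. Doc2b was 7.97, 171 and 243 CPM in CA1 PNs and 227, 235 and 274 CPM in DGCs, whereas 2 counts in all were found in the 6 CA3 libraries. From summed counts the level was 903 times higher in CA1 PNs than in CA3 PNs (95% counting interval 249 to 7464) and 1397 times higher in DGCs (386 to 11543), intervals that cover counting error only. Doc2a was highest in CA3 PNs, at 14.2, 25.8 and 41.6 CPM, above CA1 PNs with 0.724, 2.01 and 7.21 CPM (LFC -3.06 ± 0.38 for CA1, adjusted p = 5.27e-08) and above DGCs with 2.61, 8.81 and 13.6 CPM (LFC 1.57 ± 0.30, adjusted p = 5.64e-05). The CA1 against DGC difference of Doc2a (LFC -1.49 ± 0.44, adjusted p = 0.00808) was not called without the CA1 libraries rich in CA2 markers (LFC -0.98, adjusted p = 0.0801) or without mouse 17-154 (adjusted p = 0.0515). Rab3c, a minor Rab3, was the member that CA1 PNs held above both others, at 399.9, 517 and 609 CPM against 229, 243 and 257 CPM in CA3 PNs and 56.1, 90.6 and 115 CPM in DGCs (LFC 1.09 ± 0.12 and 2.49 ± 0.13, adjusted p = 2.55e-09 and 2.20e-18).

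Of the vesicle proteins, Sv2b was 978, 1044 and 1117 CPM in CA3 PNs and 385, 541 and 1173 CPM in CA1 PNs against 0, 1.34 and 2.39 CPM in DGCs. Behind the DGC value stood 8 counts, and summed counts gave 900 times more in CA3 PNs (456 to 2085) and 551 times more in CA1 PNs (279 to 1277). Syn2, a synapsin that tethers vesicles in the reserve pool, was 761, 919 and 1083 CPM in CA3 PNs, above CA1 PNs (224 to 299 CPM, LFC -1.85 ± 0.10, adjusted p = 3.34e-17) and DGCs (243 to 321 CPM, LFC 1.71 ± 0.10, adjusted p = 7.73e-17). The active zone scaffolds Bsn and Pclo, giant proteins that organise the release site, were 2519.6 to 2837 CPM and 2818 to 3718 CPM in CA3 PNs, above every CA1 and DGC library. The LFC of CA1 PNs against CA3 PNs was -1.63 ± 0.14 for Bsn and the LFC of CA3 PNs against DGCs was 1.89 ± 0.10 for Pclo (adjusted p = 1.66e-08 and 1.69e-17). Syt2, the fast sensor of inhibitory and hindbrain synapses, was low throughout but higher in CA1 PNs (2.89, 8.53 and 28.5 CPM) than in DGCs (1.29, 2.24 and 3.29 CPM, LFC 2.30 ± 0.48, adjusted p = 0.000241), with overlap, and by 1.46 without the CA1 libraries rich in CA2 markers. Of the smaller calls, Rab3a between CA1 and CA3 PNs (LFC -0.28 ± 0.10, adjusted p = 0.0432) was called in 2 of 6 fits that left out a mouse and not in 2N ChP mice (LFC -0.18, adjusted p = 0.218), whereas without the CA1 libraries rich in CA2 markers it was larger (LFC -0.49, adjusted p = 3.29e-06). Vamp4 (LFC -0.42 ± 0.12, adjusted p = 0.0106) was called in 4 of 6 such fits and not in 2N ChP mice (LFC -0.18, adjusted p = 0.451).

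**Figure D3:**
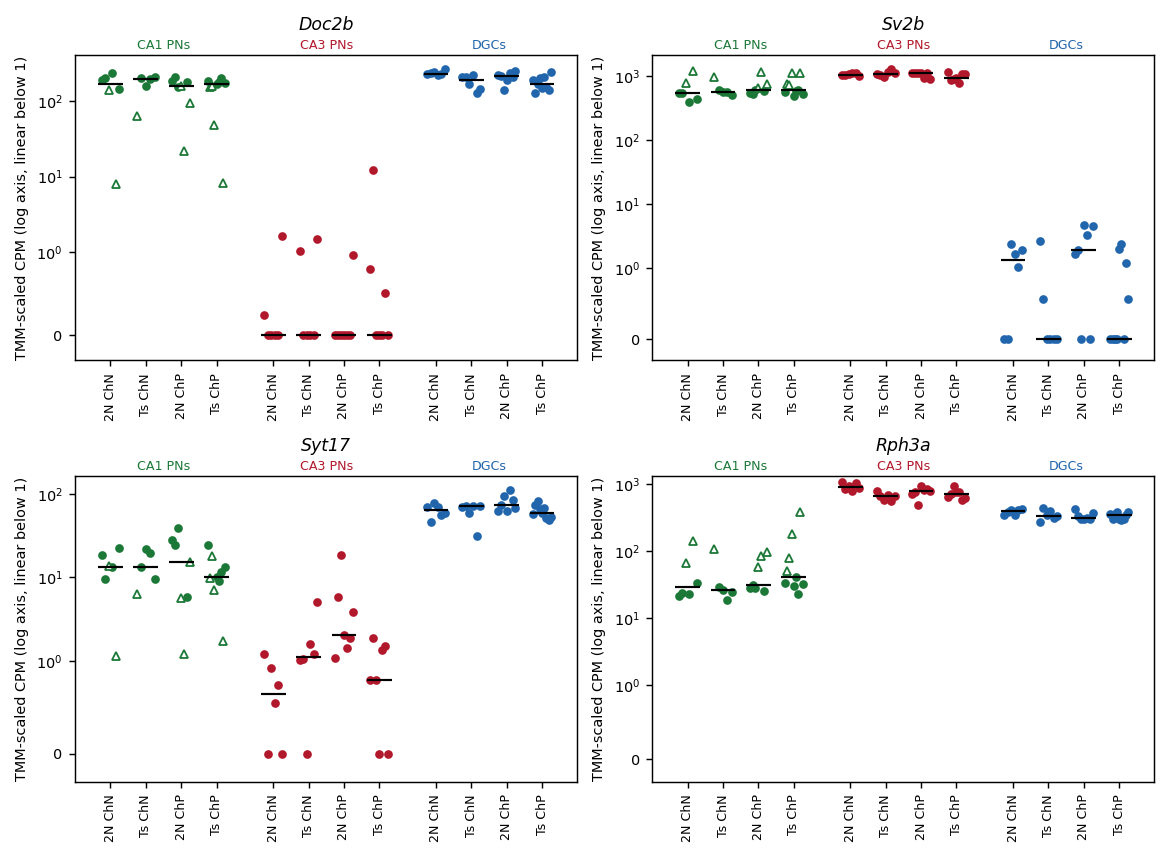
TMM-scaled CPM of Doc2b, Sv2b, Syt17 and Rph3a (log axis, linear below 1) in each of the 12 groups, 1 point per library, with bars at the medians and open triangles for the CA1 libraries rich in CA2 markers. Doc2b in CA3 PNs and Sv2b in DGCs lie at or near 0 in all 4 groups, except 1 Ts ChP CA3 library with Doc2b at 12.3 CPM. The open triangles lie above the other CA1 libraries for Rph3a.

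The same fit called 26, 31 and 37 of 61 other release genes (SNARE partners, active zone proteins, further synaptotagmins and the like, 69 listed) in the pairs CA1 against CA3, CA1 against DGCs and CA3 against DGCs, with 7, 17 and 25 of them higher. Of all genes 23.3, 34.3 and 43.7% were called in these pairs, with 11.3, 17.7 and 21.9% higher. Their median LFC was -0.18, 0.040 and 0.17, nearer 0 than those of the members.

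Within CA1 part of the members moved with the CA2 markers. In the 10 libraries rich in these markers, 11 of 50 members lay wholly above the other 17 libraries and 0 wholly below, where 1.49% and 0.271% of all genes did. The members took up 1.68 to 2.37% of all counts there against 1.37 to 1.54%, without overlap. Snap25 was 1813, 2637 and 3829 CPM in the rich libraries against 964, 1185 and 1323 CPM, and Cplx1 was 264, 368 and 546 CPM against 132, 156 and 212 CPM. Rph3a reached 50.9 to 393 CPM in the rich libraries and 18.6 to 41.0 CPM in the others. Doc2b, in turn, was 7.97, 79.2 and 161 CPM against 147, 186 and 243 CPM, with the ranges overlapping. The libraries were split by their CA2 markers and not by a label, so these values describe the libraries and carry no test. CA3 markers also varied within CA1: their mean reached 6.67 (log2 CPM) in Ts ChP and 5.58 in 2N ChP libraries. The medians of the CA1 groups were 3.35 to 3.79, and CA3 PN libraries had 7.07 to 7.65. The part of CA3 marker RNA in the member values was not tested. Counts of members in the genotype comparisons of CA1 PNs are given with and without them, and the population differences above carry the second value where it moved by over 1.5 times.

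Genotype was first compared in the ChN mice, population by population, at the study's threshold of an unadjusted p under 0.05, with the p adjusted over all genes given beside it. Only the threshold is shared: the study fitted another model, with RNA concentration and measures of read quality as covariates. From its own gene list it reported SNARE signaling as an upregulated pathway in Ts CA1 PNs. The counts below come from an unlike model and do not test that pathway. In CA1 PNs 0 of 49 members passed in the edgeR quasi-likelihood test (3.77% of all genes, 1.78% higher and 1.99% lower in Ts), and member LFCs ran from -0.64 to 0.77 around a median of -0.028. DESeq2 and limma-voom also gave 0. Without the 3 ChN libraries rich in CA2 markers 9 of 49 passed, 7 higher and 2 lower (6.82% of all genes), and with the CA2 marker mean as a covariate 3 of 49 (6.23%), none of them at an adjusted p under 0.05. The 9 were Snap25 (LFC 0.24 ± 0.08), Sv2a (0.28 ± 0.11), Syt2 (1.02 ± 0.41), Napb (0.24 ± 0.10), Unc13b (0.32 ± 0.14), Snap23 (0.96 ± 0.45) and Sv2b (0.21 ± 0.10), all higher in Ts, and Stxbp5l (-0.25 ± 0.11) and Cplx1 (-0.26 ± 0.12), lower in Ts. The smallest adjusted p among them was 0.455. Leaving out single libraries gave 0 to 3 members, 3 without Ts mouse 16-357 and 0 without mouse 17-154, the library labelled 2N. In Ts CA1 PNs Snap25 was 2868 CPM in mouse 16-357 and 1323, 1229, 1227 and 1227 CPM in the other 4 mice, and Rph3a was 107 CPM in that mouse and 29.2, 26.1, 18.6 and 24.5 CPM in the others.

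In CA3 PNs of ChN mice 7 of 47 members passed at an unadjusted p under 0.05, 1 higher and 6 lower in Ts (9.2% of all genes, 4.9% higher and 4.3% lower), around a median LFC of 0.0026. The members lower in Ts came mostly from 1 role. Of the 5 Rab3, rabphilin and Doc2 genes tested, 4 passed and all 4 were lower. The other was Rab3a, the most abundant Rab3 in CA3 PNs, which did not pass (LFC 0.02 ± 0.06, adjusted p = 0.972, edgeR). Doc2b, Syt17, Syt6 and Cplx3 did not pass the filter on low counts and were not tested.

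Rph3a was 808, 916 and 1077 CPM (lowest, median and highest of 6) in 2N and 559.6, 664 and 788 CPM in Ts CA3 PNs. The groups did not overlap (LFC -0.50 ± 0.08), and Rph3a was the 1 member at an adjusted p under 0.05 (adjusted p = 0.000488, 0.662% of all genes). Left-out libraries changed neither its direction nor the call, with an adjusted p of at most 0.00259 over 12 fits. With the CA3 library of mouse 15-145 under its own label the LFC was -0.35 and the adjusted p = 0.757, and in a fit of both diets together it was -0.51 with an adjusted p = 0.129. In the same comparison 12 of 12 inhibitory neuron markers were lower in Ts, 9 of them at an unadjusted p under 0.05 and 0 after adjustment (median LFC -0.63), none of the 12 was at 0 in either group, and their summed level was 677 to 941 CPM in 2N and 517 to 688 CPM in Ts. Astrocyte markers had a median LFC of -0.40, with 4 of 8 at an unadjusted p under 0.05. The part of such cells in the Rph3a difference, or in those of the other members lower in Ts CA3 PNs, was not tested.

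The other members that passed in ChN CA3 PNs moved less or were less abundant. Rab3c was 229, 243 and 257 CPM in 2N and 174, 198 and 238 CPM in Ts (LFC -0.23 ± 0.08, adjusted p = 0.217), with overlap. Doc2a was 14.2, 25.8 and 41.6 CPM against 7.80, 17.2 and 22.6 CPM (LFC -0.73 ± 0.25, adjusted p = 0.287), and Rab3b 4.37, 6.97 and 16.3 CPM against 0, 4.26 and 9.27 CPM (LFC -1.09 ± 0.43, adjusted p = 0.388). Both pairs of groups overlapped. Syt7 (565 to 657 CPM against 515 to 572 CPM, LFC -0.15 ± 0.06) and Syt5, another synaptotagmin (70.3 to 111 CPM against 66.9 to 89.1 CPM, LFC -0.23 ± 0.11), were lower in Ts. Snap47, a brain-enriched relative of Snap25, was higher (328, 339 and 406 CPM against 361, 375 and 446 CPM, LFC 0.16 ± 0.07). Adjusted p was 0.361, 0.516 and 0.437 for these 3. With each library left out in turn (12 fits), Syt5 passed in 5, Snap47 in 7, Rab3b in 11 (not without mouse 15-145) and Syt7 in 11 (not without mouse 17-157). With the CA3 library of mouse 15-145 under its own label Doc2a (LFC -0.57), Rab3b (-0.16), Syt5 (-0.12) and Snap47 (0.10) did not pass. The core SNAREs differed little: Snap25 LFC -0.06 ± 0.05, Stx1a 0.11 ± 0.09 and Vamp2 0.06 ± 0.07, none at an unadjusted p under 0.05.

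In DGCs of ChN mice 6 of 49 members passed at an unadjusted p under 0.05, 4 higher and 2 lower in Ts (8.5% of all genes, 4.55% higher and 3.96% lower), around a median LFC of 0.015. After adjustment 2 remained (0.588% of all genes), Cplx1 upward and Doc2b downward. Cplx1 was 71.7, 78.7 and 99.4 CPM in 2N and 104, 112 and 147 CPM in Ts, without overlap (LFC 0.50 ± 0.11, adjusted p = 0.00636). It was called in all 12 fits that left out a library and under all 6 other settings, with an adjusted p of at most 0.0473 and 0.0377. As a share of complexin TPM, Cplx1 was 12.2% (9.47 to 15.9%) in 2N and 15.0% (14.1 to 19.7%) in Ts DGCs, and Cplx2 itself had an LFC of 0.00 ± 0.05.

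Doc2b was 227, 235 and 274 CPM in 2N and 129, 191 and 223 CPM in Ts DGCs, again without overlap (LFC -0.40 ± 0.10, adjusted p = 0.0399). This call was narrow: it held in 3 of 12 fits that left out a library (adjusted p up to 0.119, LFC -0.46 to -0.33), and not with limma-voom (adjusted p = 0.103) or with both diets in 1 fit (0.439). The third member by p was Syt7, at 610.5, 644 and 698 CPM in 2N and 526, 551 and 595 CPM in Ts, without overlap (LFC -0.23 ± 0.06, adjusted p = 0.0576). Syn2 (243 to 321 CPM against 308 to 355 CPM, LFC 0.23 ± 0.07, adjusted p = 0.204), Vamp1, a vesicle SNARE akin to Vamp2 (23.5 to 42.7 CPM against 39.0 to 48.4 CPM, LFC 0.32 ± 0.15, adjusted p = 0.556), and Rims1 (185 to 222 CPM against 201 to 256 CPM, LFC 0.17 ± 0.08, adjusted p = 0.569) were higher in Ts, each with overlap. When each library was left out in turn, Vamp1 passed in 7 and Rims1 in 6 of 12 fits. Of 10 inhibitory neuron markers tested in these DGCs 0 passed at an unadjusted p under 0.05 (edgeR), and their summed level was 325 to 412 CPM in 2N and 320.7 to 472 CPM in Ts. Summed CA3 markers were 93.9 to 134 CPM and 102 to 158 CPM. Of 6 CA2 markers tested 2 passed after adjustment, and their summed level was 139.5 to 229.6 CPM in 2N and 227 to 316 CPM in Ts, with Ccdc3 at 0 in the 2N libraries. Of the DG markers 5 of 7 had a lower value in Ts, 3 at an unadjusted p under 0.05 (2265 to 2643 CPM against 2135 to 2572 CPM), and of the astrocyte markers 7 of 8 had a higher one, 2 at an unadjusted p under 0.05 (719 to 1021 CPM against 781 to 1060.4 CPM). The part of these cells in the Cplx1 and Doc2b differences was not tested.

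**Figure D4:**
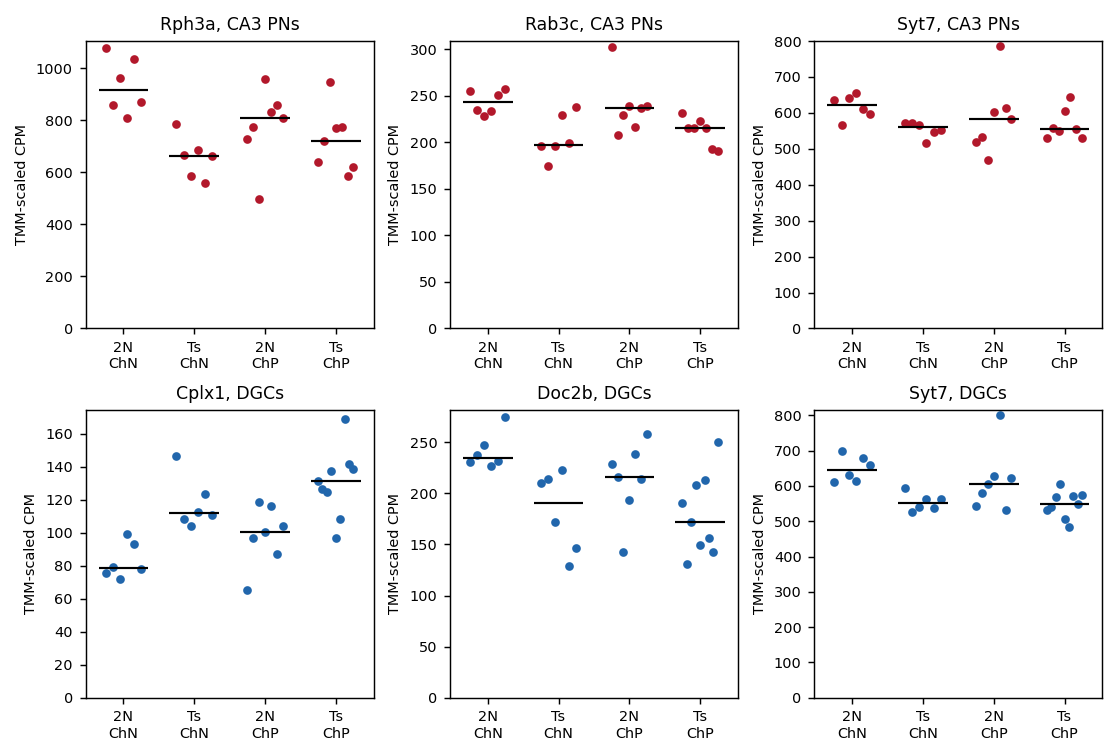
TMM-scaled CPM of Rph3a, Rab3c and Syt7 in CA3 PNs and of Cplx1, Doc2b and Syt7 in DGCs, 1 point per library in the 4 groups of genotype and diet, with bars at the medians and axes from 0. On ChN the Ts and 2N points do not overlap for Rph3a (559.6 to 788 against 808 to 1077 CPM) or for Cplx1, Doc2b and Syt7 in DGCs, while on ChP all 6 pairs overlap.

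The ChP mice, which did not enter those fits, gave the genotype comparison a second time. In DGCs 8 of 49 members passed at an unadjusted p under 0.05, 6 higher and 2 lower (7.6% of all genes, 3.95% higher and 3.65% lower), with a median LFC of 0.047 over the members. Cplx1 was again higher in Ts, at 97.1, 132 and 169 CPM (9 mice) against 65.0, 101 and 119 CPM (7 mice), and it was the 1 member at an adjusted p under 0.05 (LFC 0.43 ± 0.11, adjusted p = 0.0335, 0.445% of all genes). The groups overlapped, and the call held in 8 of 16 fits that left out a library (LFC 0.34 to 0.47) and not with DESeq2 (adjusted p = 0.0505) or limma-voom (0.131). In this comparison 9 of 10 inhibitory neuron markers were higher in Ts, 5 at an unadjusted p under 0.05 and 1 after adjustment (median LFC 0.41, summed level 277 to 392 CPM in 2N and 359 to 521 CPM in Ts), and summed CA3 markers were 56.4 to 110.0 CPM and 97.7 to 173 CPM. Of the 6 CA3 markers tested 0 had a lower value in Ts, with 2 at an unadjusted p under 0.05 and 0 after adjustment (median LFC 0.55). Of 6 CA2 markers 1 passed after adjustment (128 to 214 CPM in sum in 2N, 197 to 278 CPM in Ts), 5 of 7 DG markers had a lower value in Ts, 3 at an unadjusted p under 0.05 (median LFC -0.21), and 7 of 8 astrocyte markers had a higher one, 1 at an unadjusted p under 0.05. No marker of these 5 lists was at 0. Of 4 CA1 markers tested 2 had a lower value in Ts (median LFC -0.35). At an unadjusted p under 0.05 2 of them passed, 1 after adjustment, and Dcn and Spink8 were at 0 in the 2N libraries. The part of all these cells in the Cplx1 difference was not tested.

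Syt7 was lower in Ts DGCs on ChP too, at 531, 605 and 799.8 CPM in 2N and 485, 549.9 and 606 CPM in Ts, with overlap (LFC -0.17 ± 0.07, adjusted p = 0.421). Without 2N mouse 15-336, the highest of its group, the LFC was -0.09 and did not pass (adjusted p = 0.854, edgeR). Vamp1 (LFC 0.33 ± 0.16) and Syn2 (0.16 ± 0.08) had the sign they had on ChN (adjusted p = 0.588 and 0.651) and passed in 10 and 8 of 16 fits that left out a library. Doc2b had an LFC of -0.25 ± 0.13 that did not pass (143, 216 and 258 CPM against 131, 172 and 250.1 CPM, adjusted p = 0.688). The further members that passed were Syt6 at 0, 0 and 2.44 CPM in 2N and 0.971, 4.74 and 9.46 CPM in Ts, Rims3, a short RIM (0, 4.88 and 6.64 CPM against 2.61, 9.47 and 16.5 CPM), Napb (LFC 0.15 ± 0.07), and Syt17, which was lower (LFC -0.32 ± 0.12). Their adjusted p was 0.106, 0.155, 0.614 and 0.407, and Napb passed in 9 and Syt17 in 15 of the 16 fits. Syt6 and Rims3 rest on few counts, and a fitted LFC of Syt6 depends on the prior count. Syt6 was at 0 in 4 of 7 2N libraries and in 0 of 9 Ts libraries. It thus passed the filter on low counts mostly through the Ts libraries, and its place among the members higher in Ts carries no weight.

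In CA3 PNs of ChP mice 8 of 48 members passed at an unadjusted p under 0.05, 3 higher and 5 lower (4.99% of all genes, 2.67% higher and 2.32% lower), with a median LFC of -0.021 and 0 after adjustment. Rph3a was 499, 809.6 and 959.9 CPM in 2N and 587, 721 and 946 CPM in Ts, with wide overlap (LFC -0.12 ± 0.14, adjusted p = 0.999). Rab3c was again lower in Ts (208 to 303 CPM against 190.4 to 231 CPM, LFC -0.19 ± 0.08, adjusted p = 0.870). Syp (LFC -0.19 ± 0.07), Stx16, a syntaxin of the Golgi (-0.27 ± 0.11), and Snap23, a widely expressed relative of Snap25 (-0.72 ± 0.36), were lower, while Rims2 (0.25 ± 0.10), Vamp2 (0.14 ± 0.06) and Cplx2 (0.12 ± 0.06) were higher. The smallest adjusted p of these 6 was 0.556. Snap23 passed in 7 of 14 fits that left out a library, and its LFC was -0.39 without 2N mouse 15-334. Cplx2 passed in 3 of the 14, Vamp2 in 9, Rab3c in 11, Stx16 and Rims2 in 12 each and Syp in all 14. Syt17 was 1.08, 2.05 and 18.6 CPM in 2N and 0, 0.799 and 1.89 CPM in Ts (LFC -2.50 ± 0.66, adjusted p = 0.151), and without 2N mouse 15-296 its LFC was -1.55 (adjusted p = 0.769). The CA3 library of Ts mouse 15-140 carried DG markers at 165 CPM in sum, where the medians of the 4 CA3 groups were 43.4 to 56.3 CPM, and held Doc2b at 12.3 CPM, above every other CA3 library.

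In CA1 PNs of ChP mice 3 of 49 members passed at the unadjusted threshold, each of them up in Ts (3.6% of all genes, 2.14% higher and 1.46% lower), and 0 after adjustment. Stx4a, a syntaxin of the general plasma membrane, was 10.2, 15.2 and 22.0 CPM in 2N and 14.6, 25.3 and 36.4 CPM in Ts (LFC 0.62 ± 0.22). Stx3 was 16.2, 22.7 and 24.4 CPM against 21.4, 27.8 and 37.3 CPM (LFC 0.44 ± 0.16), and Syt7 was 202, 262 and 298 CPM against 243, 302 and 368 CPM (LFC 0.22 ± 0.10). All 3 pairs of groups overlapped, and Syt7 passed in 6 of 16 fits that left out a library. Without the CA1 libraries rich in CA2 markers 4 of 49 members passed, 3 higher and 1 lower (6.57% of all genes): Stx1a (LFC 0.48 ± 0.16), Stx4a (0.67 ± 0.24), Unc13a (0.19 ± 0.09) and Syn2 (-0.22 ± 0.10), and with the CA2 marker mean as a covariate 7 of 49 did (5.61%).

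**Figure D5:**
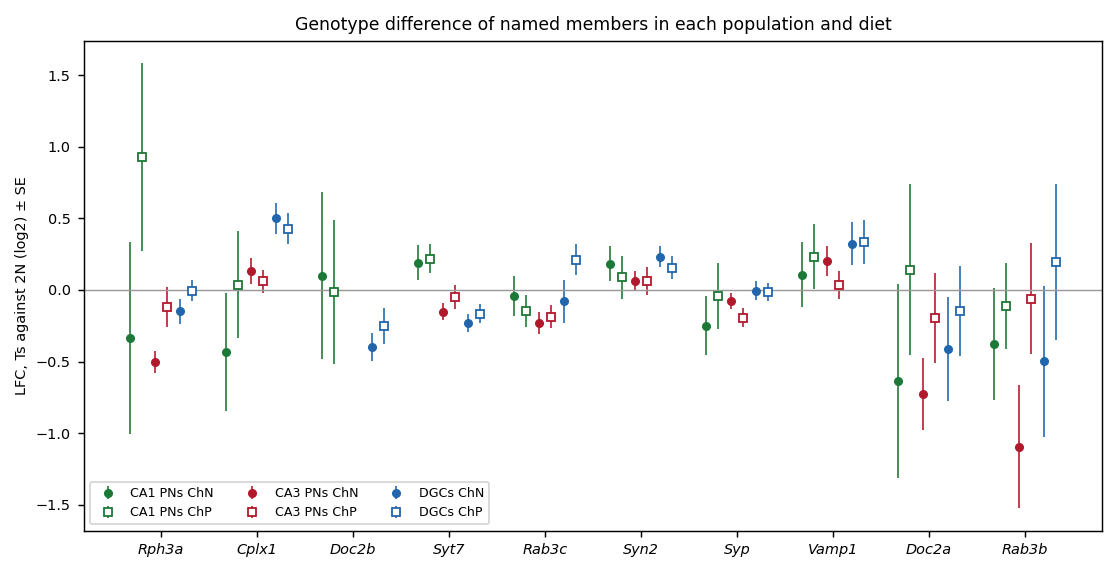
LFC ± SE of Ts against 2N for 10 members, with colours for the populations, filled points for ChN and open squares for ChP. Cplx1 in DGCs lies above 0 on both diets (0.50 and 0.43), Rph3a in CA3 PNs is at -0.50 on ChN and -0.12 on ChP, and the CA1 error bars of Rph3a, Cplx1 and Doc2b span 0 on at least 1 diet.

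A difference called in 1 population and not in another was tested as such in a fit of all 35 ChN libraries. No member reached an adjusted p under 0.05 (edgeR). At an unadjusted p under 0.05, 1 of 50 members passed for CA1 against CA3 (4.22% of all genes), 3 for CA1 against DGCs (5.51%) and 1 for CA3 against DGCs (5.18%). Syt7 gave the first and was among the second: its Ts minus 2N difference was higher in CA1 PNs by an LFC of 0.36 ± 0.12 than in CA3 PNs and by 0.43 ± 0.12 than in DGCs (adjusted p = 1.0 and 0.639). In single populations that difference was 0.19 ± 0.12 for CA1, -0.15 ± 0.06 for CA3 and -0.23 ± 0.06 for DGCs. Cplx1 differed between CA1 PNs and DGCs by -0.93 ± 0.37 (adjusted p = 0.860), and by -0.76 ± 0.16 without the CA1 libraries rich in CA2 markers (adjusted p = 0.0523). Vamp4, a SNARE of endosomes and the Golgi, differed in the same pair by 0.42 ± 0.20 and passed in 5 of 12 fits that each left out a mouse, where Cplx1 passed in 10. Syt6 gave the call between CA3 PNs and DGCs, from a CA3 level of 0 in all 6 Ts libraries, and lost it with the CA3 library of mouse 15-145 under its own label. Syt6 was not tested in CA3 PNs alone and entered this fit mostly through the DGC libraries, none of which was at 0. Its call is therefore no evidence of a genotype difference in CA3 PNs. The Rph3a difference between CA3 PNs and DGCs did not pass with all libraries (-0.37 ± 0.41), and was -0.37 ± 0.13 without the CA1 libraries rich in CA2 markers (adjusted p = 0.484).

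Maternal diet was compared within each genotype in a fit of all 4 groups of a population, and no member reached an adjusted p under 0.05 (edgeR). The labels give no sequencing run, so a difference in processing between the diets and the diet itself cannot be told apart. In 2N mice 0 of 50 members passed at an unadjusted p under 0.05 for CA1 (3.27% of all genes), 4 of 48 for CA3 (4.9%) and 4 of 50 for DGCs (5.82%). In Ts mice the counts were 0 of 50 (3.05%), 3 of 48 (4.19%) and 0 of 50 (3.81%). Where edgeR gave 0, DESeq2 did too, and limma-voom gave 1 member for Ts DGCs and 0 for CA1. In 2N CA3 PNs the ChP diet went with more Syt17 (LFC 2.76 ± 0.64, adjusted p = 0.293, and 1.84 without mouse 15-296, adjusted p = 0.999), Syp (0.14 ± 0.06) and Vamp1 (0.22 ± 0.10) and with less Doc2a (-0.88 ± 0.32), whose 2N level was 14.2, 25.8 and 41.6 CPM on ChN and 6.21, 13.8 and 22.2 CPM on ChP. In 2N DGCs Stx4a (-0.66 ± 0.26), Unc13b, the minor Munc13 (-0.35 ± 0.14), and Rph3a (-0.19 ± 0.09) were lower and Syt17 (0.30 ± 0.15) higher on ChP. In Ts CA3 PNs Sv2b (-0.19 ± 0.07) and Unc13b (-0.20 ± 0.10) were lower and Vamp2 (0.14 ± 0.07) higher.

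Whether the genotype difference itself changed with diet was tested as an interaction (ChP minus ChN of the Ts minus 2N LFC). At an unadjusted p under 0.05, 1 of 50 members passed for CA1 (3.22% of all genes), 3 of 48 for CA3 (4.87%) and 1 of 50 for DGCs (3.97%), and none at an adjusted p under 0.05. In CA3 PNs these were Rph3a (0.40 ± 0.18), Rims2 (0.31 ± 0.15) and Syt17 (-3.62 ± 1.0, and -2.70 without mouse 15-296), with adjusted p = 0.983 for each with all libraries. With the CA3 library of mouse 15-145 under its own label Rph3a (0.23) and Rims2 (0.24) did not pass. Stx4a passed in both CA1 PNs (0.86 ± 0.34) and DGCs (0.75 ± 0.35). The Cplx1 interaction in DGCs did not pass (-0.07 ± 0.15).

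The other release genes were counted by genotype at the same unadjusted threshold. In the order CA1, CA3 and DGCs, 2 of 58, 8 of 60 and 8 of 60 passed on ChN, and 1 of 62, 1 of 60 and 5 of 62 on ChP. Of all genes 3.77, 9.2 and 8.5% passed on ChN and 3.6, 4.99 and 7.6% on ChP. Cadps2, a priming protein of dense-core vesicles, was higher in Ts CA3 PNs on ChN (LFC 1.3 ± 0.22, adjusted p = 0.00029, and 0.369 with the CA3 library of mouse 15-145 under its own label), where Unc13c, the third Munc13, had an LFC of -1.54 ± 0.45 (adjusted p = 0.115). Prrt2, which binds Snap25 and the calcium sensors, was higher in Ts DGCs on ChP (LFC 0.32 ± 0.07, adjusted p = 0.0101), and Syn3, the third synapsin, had an LFC of -0.49 ± 0.13 in Ts DGCs on ChN (adjusted p = 0.0761).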

How the data were processed

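Total RNA of 81 laser-captured libraries (27 CA1, 26 CA3 and 28 DG) from 28 mice was analysed. The authors aligned reads with STAR and summarised them with RSEM on a mouse genome (the labels name GRCm39 and mm10), and the submitters' processing notes name FastQC 0.11.9, Trimmomatic 0.39 and Picard 2.26.2. The deposited RSEM expected counts, which divide multi-mapping reads between genes, were rounded to whole numbers, and 0.784% of the values on average were not whole. The deposited TPM values, made by the authors with RSEM, are scaled by transcript length and served only to compare levels between genes. The strand setting of the counting is not given in the sources used here, so reads of overlapping antisense genes may be included. No per-sample column was left unused.

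Genes with at least 0.1 CPM in at least 10 libraries were fitted with edgeR 4.0.16 (R 4.3.3), with TMM scaling, robust quasi-likelihood tests (two-sided) and Benjamini-Hochberg adjustment over all genes tested, and each LFC is given ± its SE. The script was tested on simulated data with known changes. Genotype was fitted per population and diet, diet and its interaction over the 4 groups of a population, and populations over the 2N ChN libraries. Alternatives used DESeq2 1.42.0, limma-voom (limma 3.58.1), library totals, other filters, single libraries left out, the mouse as a block and, added after seeing the data, the CA1 libraries rich in CA2 markers (mean above 5 on the log2 CPM scale) left out or that mean as a covariate.

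The libraries of 1 mouse share an animal. Same-mouse libraries deviated together with a correlation of -0.014 to 0.199 (median 0.0965, 34 pairs, 7647 genes), against -0.140 to 0.148 (median -0.0237) between mice, and the numbers pair the libraries because they name the animal. Mice are the replicates. Counting intervals (95%, exact) and all ratios of summed counts cover counting error only.

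Members and gene lists were chosen with earlier results of these data known. The text names, per genotype comparison, members at an adjusted p under 0.05 and then the smallest unadjusted p up to 8, up to 5 per diet or interaction comparison, the 5 highest and 5 lowest LFCs per population pair and up to 3 per comparison of genotype differences. Further members named for their role, share or level were chosen after their values were seen.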

Additional observations from a re-analysis of the deposited data

Results flagged for a closer look

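Among 72 groups of 5 to 9 libraries (Cplx1, Doc2b, Rph3a, Sv2b, Syt7 and Syt17 in 12 groups each), 15 held 1 library whose gap to the nearest other was large against the range of the group. The nominal rate of about 1 group in 20 cannot be set against this count. Some groups rest on few counts, where 1 count among zeros is flagged by construction. The genes were chosen with results of these data known, and the same libraries recur over several genes. In CA1 PNs the highest library was from mouse 16-357 in the Ts ChN group for Cplx1 (372 CPM, next 156), Rph3a (107 CPM, next 29.2) and Sv2b (959 CPM, next 596), and from mouse 15-336 in the 2N ChP group for Cplx1 (546 CPM, next 305) and Sv2b (1.14e+03 CPM, next 753). Rph3a reached 393 CPM (next 179) in Ts ChP mouse 16-272. Syt7 was lowest in 2N ChN mouse 17-21 (188 CPM, next 280). These 4 CA1 libraries are among the 10 rich in CA2 markers, that of mouse 17-21 with the highest mean (7.90 on the log2 CPM scale), and the part of these markers in the values was not tested.

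In CA3 PNs Doc2b stood at 1.63 CPM (next 0.243) in 2N ChN mouse 17-56, at 0.964 CPM (next 0) in 2N ChP mouse 16-90 and at 12.3 CPM (next 0.796) in Ts ChP mouse 15-140, the library with the most DG marker RNA among the CA3 libraries (165 CPM in sum). Syt17 reached 5.15 CPM (next 1.61) in Ts ChN mouse 17-192 and 18.6 CPM (next 5.89) in 2N ChP mouse 15-296. In DGCs Sv2b reached 2.63 CPM (next 0.562) in Ts ChN mouse 16-357, Syt17 was lowest in Ts ChN mouse 17-173 (31.4 CPM, next 59.2), and Syt7 was highest in 2N ChP mouse 15-336 (800 CPM, next 628).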

How the results depend on the processing

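No called value changed sign under an alternative. Of the gene values under settings other than left-out libraries 806 kept their side of the threshold and 84 did not, and with a library or mouse left out 1660 did and 294 did not. Of the counts of called members 118 stayed within 1.5 times the main count. The 28 others follow, as members at an unadjusted p under 0.05, and the cause was not tested.

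Without the CA1 libraries rich in CA2 markers the counts were 3 for diet in 2N CA1, 2 for diet in Ts CA1, 9 for genotype on ChN in CA1, 4 for the CA1 interaction, and 7, 7 and 3 for the genotype difference of CA1 against CA3, CA1 against DGCs and CA3 against DGCs. With the CA2 marker mean as a covariate they were 2 for diet in Ts CA1, 3 and 7 for genotype on ChN and ChP in CA1, and 3 for the CA1 interaction. With no filter they were 1 and 8 for diet in 2N CA1 and CA3, 5 and 1 for diet in Ts CA3 and DGCs, 2 for the genotype difference CA1 against CA3 and 6 for the CA3 interaction. With limma-voom they were 2 for diet in 2N DGCs, 1 in Ts DGCs, 3 for the genotype difference CA1 against CA3 and 6 for the CA3 interaction. With library totals they were 1 for diet in 2N CA1 and 3 for the genotype difference CA1 against CA3. With filterByExpr they were 5 for genotype on ChP in CA3 and 0 for the genotype difference CA3 against DGCs. With the CA3 library of mouse 15-145 under its own label the genotype difference had 2 for CA1 against CA3 and 0 for CA3 against DGCs.

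With the mouse as a block, the pairing of libraries by animal, the 3 population pairs had 28, 32 and 37 called members, and the genotype difference had 2, 3 and 1 in the order CA1 against CA3, CA1 against DGCs and CA3 against DGCs.

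With single libraries or mice left out the counts ranged from 0 to 2, 2 to 6 and 2 to 5 for diet in 2N CA1, CA3 and DGCs, and from 0 to 1, 1 to 4 and 0 to 2 in Ts. For genotype they ranged from 0 to 3, 5 to 8 and 4 to 7 on ChN and from 2 to 4, 5 to 8 and 4 to 10 on ChP. The genotype difference ranged from 1 to 5 and 2 to 6 for CA1 against CA3 and DGCs, both highest without mouse 16-357, and stayed at 1 for CA3 against DGCs. The interaction ranged from 1 to 1, 1 to 5 and 0 to 2 in CA1, CA3 and DGCs, and the population pairs from 23 to 32, 29 to 33 and 35 to 38.

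Depth limits the low members: Syt6, Syt17 and Doc2b in CA3 PNs and Sv2b in DGCs rest on few counts per group, and Cplx3 and, in part of the fits, these members were not tested.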
